A study of Mus musculus with 6 samples.

Results

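The genes that make, degrade and read cyclic AMP (cAMP) upstream of MITF were followed in primary melanocytes of mouse skin. They were chosen as 35 named genes in 5 groups: 9 adenylyl cyclases, the stimulatory G protein alpha subunit Gnas, 14 phosphodiesterases, 6 protein kinase A (PKA) subunits, and 5 CREB and CRTC transcription factors. All 35 were found by symbol among the 36528 gene models of the files. Polyadenylated RNA of 6 libraries was sequenced, 3 labelled BAP1 KO (knockout of the nuclear deubiquitinase BAP1) and 3 labelled WT (wild type). The allele, the manner of its deletion, and whatever sex and age the mice had, were not given in the sources used here. Whether libraries of 1 group stem from different animals or cultures is not in the labels; a p-value here therefore covers the spread among these libraries, which could be purely technical.

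In melanocytes, the peptide alpha-MSH binds the receptor MC1R, whose stimulatory G protein (the product of Gnas) switches on adenylyl cyclases, the enzymes that make cAMP from ATP. Phosphodiesterases break cAMP down. cAMP binds the regulatory subunits of PKA and frees the catalytic subunits, which phosphorylate CREB, and CRTC proteins then enter the nucleus as CREB coactivators. CREB with CRTC switches on Mitf, the lineage transcription factor that drives the pigment enzymes, and MITF is known to raise the phosphodiesterase PDE4D in return.

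The targeted gene did not mark the groups. Bap1 stood at 73.6, 77.3 and 72.5 CPM in libraries labelled BAP1 KO and 55.7, 55.6 and 55.8 CPM in libraries labelled WT, so it was higher, not lower, under the knockout label (log2 fold change 0.42, SE 0.0420, edgeR adjusted p = 3.89e-06). The count pools all exons, so it does not test for the loss of single exons. Every direction below rests on the labels. CPM is the read count per library size, with the size corrected by TMM for composition, and nRPKM is the authors' RPKM adjusted by a size factor, which alone allows levels of different genes to be set side by side. Libraries held 33987690 to 43773769 reads. All 11 melanocyte markers examined were read in every library and were higher under the BAP1 KO label, with a summed level of 63499 to 64322 CPM in libraries labelled BAP1 KO and 6699 to 6777 CPM in libraries labelled WT. Markers of other skin cells moved as well. The counts of markers called stand beside 39.4% of all tested genes higher and 42.1% lower, by the test described in the next paragraph. The 16 keratinocyte markers (15 lower, 1 not tested) summed to 702 to 723 CPM in libraries labelled BAP1 KO and 10072 to 10208 CPM in libraries labelled WT, with Krt1 at 0 reads in 2 libraries labelled BAP1 KO. The 12 fibroblast markers (10 lower, 1 higher, 1 not tested) summed to 72.8 to 77.8 CPM in libraries labelled BAP1 KO and 1015 to 1044 CPM in libraries labelled WT. The 8 immune markers (5 higher, 2 lower, 1 not tested) summed to 221 to 229 CPM in libraries labelled BAP1 KO and 44.6 to 49.9 CPM in libraries labelled WT, with Cd3e at 0 in all 3 libraries labelled BAP1 KO and in 2 libraries labelled WT. The 5 endothelial markers (2 higher, 1 lower, 2 not tested) summed to 48.8 to 53.8 CPM in libraries labelled BAP1 KO and 14.7 to 15.5 CPM in libraries labelled WT. The 6 Schwann cell markers (2 higher, 2 lower, 1 not past the threshold, 1 not tested) summed to 2109.8 to 2142 CPM in libraries labelled BAP1 KO and 1029 to 1109 CPM in libraries labelled WT. The part of these cells in the results below was not tested, and in such bulk RNA fewer cells of a type and less RNA per cell cannot be told apart.

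Of the 35 genes, 25 were higher and 5 were lower in libraries labelled BAP1 KO, 3 did not pass the threshold and 2 had too few reads to test (edgeR quasi-likelihood test, Benjamini-Hochberg adjusted p under 0.05 over all 17121 tested genes). Among all tested genes 39.4% were called higher and 42.1% lower, 81.5% in either direction. The libraries labelled BAP1 KO all lay above those labelled WT for 25 members and all below for 5, and for 82.7% of all tested genes the groups did not overlap (40.1% above, 42.6% below). The 33 tested genes had a median log2 fold change of 0.76, where all tested genes had -0.03. By family the median was 1.72 for the cyclases, 1.17 for the phosphodiesterases, 0.34 for the PKA subunits and 0.69 for the CREB and CRTC genes. Values given after "higher by" or alone in parentheses are log2 fold changes of the label BAP1 KO over the label WT. A difference of more than 2-fold was called for 14 members that were higher and 3 that were lower, while 13.9% of all tested genes were called more than 2-fold higher and 22.7% more than 2-fold lower. Of the tested members, 32 reached the minimum level of the count filter in all 3 libraries of both groups. Adcy4 reached it only under the label WT, where it was high. Its count as lower, and among the 5 that lay all below, therefore supports nothing. Without it 4 members were lower, 2 of them by more than 2-fold (Pde7a and Prkar1b). The median log2 fold change without it was 0.81 for the members and 1.81 for the cyclases. When edgeR's glmTreat tested against a log2 fold change of 1, 11 members passed as higher and 3 as lower, the latter Adcy4, Pde7a and Prkar1b. Of all 17121 tested genes, 1818 passed that test as higher and 3417 as lower.

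**Figure D1:**
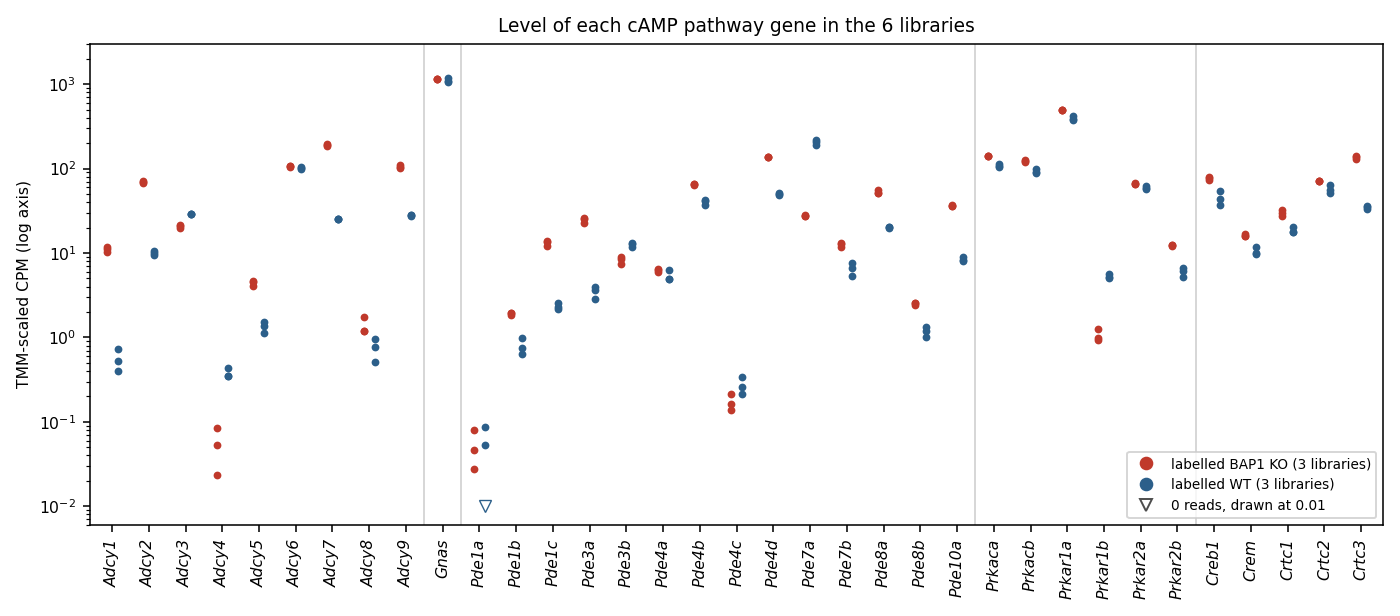
TMM-scaled CPM (log axis) of the 35 cAMP pathway genes in each of the 3 libraries labelled BAP1 KO (red) and the 3 libraries labelled WT (blue), with lines between the 5 groups of genes. Libraries of 1 group lie close together for the abundant genes, Gnas is near 1100 CPM in both groups, and Pde7a lies far lower under the BAP1 KO label while Adcy2, Adcy7 and Adcy9 lie far higher.

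Short stretches before the annotated starts of some of these genes show where the short CREB element lies, since CREB binds the element TGACGTCA and its shorter core TGACG, read as CGTCA on the other strand. RefSeq promoter windows (build GRCm38.p6, 250 bases before to 50 after a start) were at hand for 28 of the 35 genes, 64 windows in all. The core, counted also inside the full element, was in 17 of the 64 windows (26.6%). It was in 20.8% of all windows of the table and in 28.5% of those of tested genes. By gene it was in 13 of the 28 members (46.4%) and in 32.9% of tested genes with a window. Members have more windows per gene, so the unit counted changes this comparison. The full element was in 2 overlapping windows of 1 member, Prkar1a, in 1.79% of all windows and in 2.80% of those of tested genes. The E-box CACGTG, which MITF can bind, was in 5 member windows (7.81%), in 7.15% of all windows and in 9.34% of those of tested genes. By gene it was in 5 members (17.9%) and in 11.1% of tested genes with a window. A match of letters is no binding site, and which start these cells use was not examined. The 120 bases before a start of each of 4 genes that were higher under the BAP1 KO label are shown with the core in capitals. For Prkar1a 30 bases are shown with the full element in capitals. This choice of genes does not tie the core to a direction. The core also lay before a start of Prkar1b, called lower, and of Gnas and Pde4a, not past the threshold. By gene it was in 9 of 21 members called higher and in 1 of 3 called lower, Adcy4 being counted among the 3. Other windows of Adcy7 and Pde4b lack it.
Adcy7 (chr8:88282872-88282991, plus strand): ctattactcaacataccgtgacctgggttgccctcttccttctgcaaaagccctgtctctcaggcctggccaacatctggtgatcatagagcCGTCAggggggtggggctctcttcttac
Adcy9 (chr16:4420499-4420618, minus strand): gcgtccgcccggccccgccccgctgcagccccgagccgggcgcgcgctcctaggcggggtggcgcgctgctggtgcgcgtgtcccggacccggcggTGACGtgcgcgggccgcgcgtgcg
Pde4b (chr4:102421435-102421554, plus strand): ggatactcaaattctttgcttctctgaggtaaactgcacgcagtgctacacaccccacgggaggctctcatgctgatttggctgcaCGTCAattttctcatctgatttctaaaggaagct
Pde8a (chr7:81213145-81213264, plus strand): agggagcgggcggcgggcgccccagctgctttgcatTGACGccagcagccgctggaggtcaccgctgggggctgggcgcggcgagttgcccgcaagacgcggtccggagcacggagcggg
Prkar1a (chr11:109650889-109650918, plus strand): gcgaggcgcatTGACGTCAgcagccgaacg
The core starts 28 bases before the start in Adcy7, 24 in Adcy9, 34 in Pde4b and 84 in Pde8a. In Prkar1a the full element starts 49 bases before 1 annotated start. Its first base is also base 39 from an earlier start, with that start counted as base 1.

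The adenylyl cyclases were higher as a family in libraries labelled BAP1 KO. Of the 9 genes 6 were higher, 2 were lower and Adcy6 did not pass the threshold. Among all tested genes 39.4% were higher and 42.1% lower. Their summed per-length level was 72.2 ± 1.55 nRPKM in libraries labelled BAP1 KO and 25.5 ± 0.465 nRPKM in libraries labelled WT (mean and SD of 3 libraries each), 2.83-fold apart with no overlap between groups (exact permutation test, two-sided p = 0.1, the smallest that 3 against 3 libraries can give). The cyclases that G protein beta-gamma subunits can stimulate held most of the level under the BAP1 KO label. Adcy7, of that class (gene ID 11513, chromosome 8, 88272190 to 88329965 of GRCm38), stood at 190.5, 195 and 185 CPM in libraries labelled BAP1 KO and 25.6, 25.1 and 25.4 CPM in libraries labelled WT. The groups were far apart, at 7.48-fold (log2 fold change 2.90, SE 0.0427, edgeR adjusted p = 6.98e-13). Adcy2, of the same class (gene ID 210044, chromosome 13, 68620043 to 68999600), stood at 69.9, 67.7 and 70.6 CPM in libraries labelled BAP1 KO and 10.04, 10.5 and 9.41 CPM in libraries labelled WT. The groups did not overlap, and the difference was 6.95-fold (log2 fold change 2.80, SE 0.0549, edgeR adjusted p = 5.21e-12). Adcy4, the remaining member of the class, was close to absent, with 6 reads in all under the BAP1 KO label and 43 under the WT label. It was tested only because of its level under the WT label, so no test of it is given.

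Adcy9, a cyclase that responds poorly to the activator forskolin (gene ID 11515, chromosome 16, 4284886 to 4437236), stood at 105, 109.96 and 101 CPM in libraries labelled BAP1 KO and 28.6, 28.1 and 27.7 CPM in libraries labelled WT. It was 3.75-fold higher with no overlap (log2 fold change 1.91, SE 0.0466, edgeR adjusted p = 2.69e-11). The calcium-stimulated cyclases went both ways. Adcy1 (gene ID 432530, chromosome 11, 7063433 to 7178506) stood at 11.2, 11.7 and 10.3 CPM in libraries labelled BAP1 KO and 0.403, 0.532 and 0.728 CPM in libraries labelled WT. This 19.6-fold difference was the largest of the 33 tested members (log2 fold change 4.29, SE 0.147, edgeR adjusted p = 4.27e-10) but left Adcy1 at only 0.852 nRPKM. Adcy8, under 2 CPM in every library, was higher by 0.85 (SE 0.242; edgeR adjusted p = 0.00738), and Adcy3 was lower at -0.50 (SE 0.0533). Adcy3 is uncertain in part, since 22.1% of its annotated exon bases overlap other genes, Cenpo most of all, and the libraries do not mark strand.

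Of the calcium-inhibited pair, Adcy5 changed and Adcy6 did not pass the test. Adcy5 (gene ID 224129, chromosome 16, 35154494 to 35305743) stood at 4.53, 4.69 and 4.04 CPM in libraries labelled BAP1 KO and 1.12, 1.52 and 1.38 CPM in libraries labelled WT, 3.29-fold higher with no overlap (log2 fold change 1.72, SE 0.133, edgeR adjusted p = 4.56e-07). Adcy6 stood at 108, 108 and 103 CPM in libraries labelled BAP1 KO and 98.4, 102 and 104 CPM in libraries labelled WT, and the groups overlapped (log2 fold change 0.07, SE 0.0413, edgeR adjusted p = 0.145; 95% interval -0.02 to 0.16). Without replicate 3 labelled WT Adcy6 was called higher, at a log2 fold change of 0.12 (edgeR adjusted p = 0.00652).

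The leading cyclase differed between the labels. Adcy6 held 15.9% ± 0.109 in libraries labelled BAP1 KO and 41.9% ± 0.779 in libraries labelled WT of the family's summed nRPKM, and Adcy7 held 37.3% ± 0.248 in libraries labelled BAP1 KO and 13.8% ± 0.294 in libraries labelled WT. Adcy7, Adcy2 and Adcy4 together held 58.8% ± 0.655 in libraries labelled BAP1 KO and 22.8% ± 0.543 in libraries labelled WT. The calcium-stimulated Adcy1, Adcy3 and Adcy8 together held 6.80% ± 0.203 in libraries labelled BAP1 KO and 21.5% ± 0.0745 in libraries labelled WT. None of these shares overlapped between groups (exact permutation test, two-sided p = 0.1 each). Adcy7 and Adcy6 were picked as the genes with the highest mean in each group of these same libraries. The shares by class were not planned. These tests therefore support nothing beyond the values shown. Adcy6 itself stood at 106 CPM for the label BAP1 KO and 101 CPM for the label WT, so its share was lower while the levels of Adcy7, Adcy2 and Adcy9 were higher.

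Gnas, which couples the receptor to the cyclases, did not pass the test. Gnas (gene ID 14683, chromosome 2, 174284320 to 174346744) stood at 1137, 1149 and 1137 CPM in libraries labelled BAP1 KO and 1100.1, 1059.5 and 1178 CPM in libraries labelled WT. The groups overlapped, because replicate 3 labelled WT lay above all libraries labelled BAP1 KO (log2 fold change 0.04, SE 0.0405, edgeR adjusted p = 0.417; 95% interval -0.05 to 0.13). Without that library it was called higher, at 0.11 (edgeR adjusted p = 0.0041), and with library totals in place of TMM the sign turned, to -0.025. The count pools several transcripts that start at separate promoters of this imprinted locus. It is uncertain in part, as 21.96% of the exon bases overlap other genes, Gm20721 most of all. At 88.96 ± 0.499 nRPKM in libraries labelled BAP1 KO and 84.98 ± 5.78 nRPKM in libraries labelled WT, it was the member with the highest level after Prkar1a.

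The summed per-length level of the phosphodiesterases overlapped between the groups, while their composition differed. Of the 14 genes 9 were higher, 2 were lower, Pde4a did not pass the threshold, and Pde1a and Pde4c were not tested. Among all tested genes 39.4% were higher and 42.1% lower. Pde1a had 6 reads in all under the BAP1 KO label and 5 under the WT label, and Pde4c 20 and 31. The summed level was 48.8 ± 1.02 nRPKM in libraries labelled BAP1 KO and 46.4 ± 1.68 nRPKM in libraries labelled WT (SD, n = 3 each, exact permutation test, two-sided p = 0.2). The overlap was narrow, with replicate 2 labelled BAP1 KO (47.682) just below replicate 2 labelled WT (47.688). Summed as CPM, not divided by length, the groups did not overlap. Those sums were 382 to 393 CPM in libraries labelled BAP1 KO and 336 to 374 CPM in libraries labelled WT. Without Pde7a, a split chosen after its values were seen, the other 13 genes summed to 45.1 ± 1.03 nRPKM in libraries labelled BAP1 KO and 19.9 ± 0.189 nRPKM in libraries labelled WT.

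Pde7a, a cAMP-specific enzyme of high affinity (gene ID 18583, chromosome 3, 19223108 to 19311322), was the outlying member. It stood at 28.6, 27.4 and 27.2 CPM in libraries labelled BAP1 KO and 208, 218 and 189 CPM in libraries labelled WT. This was 7.38-fold lower in libraries labelled BAP1 KO with a wide gap between groups (log2 fold change -2.88, SE 0.0583, edgeR adjusted p = 6.38e-12). Its share of the family's nRPKM was 7.52% ± 0.270 in libraries labelled BAP1 KO and 57.05% ± 1.19 in libraries labelled WT. The paralog Pde7b moved the other way, from 6.60 CPM under the WT label to 12.6 CPM under the BAP1 KO label (log2 fold change 0.93, SE 0.113).

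The PDE8 enzymes, also cAMP-specific, were both higher. Pde8a (gene ID 18584, chromosome 7, 81213265 to 81334535) stood at 51.8, 51.8 and 55.6 CPM in libraries labelled BAP1 KO and 20.3, 20.03 and 20.5 CPM in libraries labelled WT. It was 2.62-fold higher (log2 fold change 1.39, SE 0.0497, edgeR adjusted p = 6.38e-10), and the groups did not overlap. By nRPKM Pde8a held 38.2% ± 0.941 in libraries labelled BAP1 KO and 15.1% ± 0.924 in libraries labelled WT, which made it the leading phosphodiesterase per length under the BAP1 KO label; by reads not divided by length Pde4d and Pde4b stood above it there. Pde8b, at low level, stood at 2.43, 2.53 and 2.54 CPM in libraries labelled BAP1 KO and 1.21, 1.33 and 1.02 CPM in libraries labelled WT (log2 fold change 1.08, SE 0.140, edgeR adjusted p = 3.12e-05).

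The PDE4 enzymes, the cAMP-specific targets of the drug rolipram, followed the same direction where called. Pde4d, the isoform known as a target of MITF (gene ID 238871, chromosome 13, 108654177 to 109955969), stood at 138, 136 and 138 CPM in libraries labelled BAP1 KO and 49.05, 51.99 and 49.4 CPM in libraries labelled WT. It was 2.73-fold higher, with a spread far smaller than the difference (log2 fold change 1.45, SE 0.0410, edgeR adjusted p = 8.79e-11). Pde4b was higher by 0.71 (SE 0.0539), at 65.1 against 39.9 CPM under the BAP1 KO and WT labels. Pde4a stood at 5.96, 6.38 and 6.41 CPM in libraries labelled BAP1 KO and 4.86, 4.97 and 6.33 CPM in libraries labelled WT and did not pass (log2 fold change 0.21, SE 0.110, edgeR adjusted p = 0.103; 95% interval -0.04 to 0.45). Without replicate 3 labelled WT Pde4a was called higher, at 0.38 (edgeR adjusted p = 0.00131). The 4 PDE4 genes together held 36.2% ± 0.549 in libraries labelled BAP1 KO and 18.9% ± 0.380 in libraries labelled WT, or 53.7% and 26.9% when reads were not divided by length.

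Phosphodiesterases that also cleave cyclic GMP or are inhibited by it were mostly higher, from low levels. Pde3a, an enzyme that cyclic GMP inhibits (gene ID 54611, chromosome 6, 141249269 to 141506862), stood at 26.2, 22.8 and 24.96 CPM in libraries labelled BAP1 KO and 3.68, 3.91 and 2.86 CPM in libraries labelled WT, 7.09-fold higher (log2 fold change 2.83, SE 0.105, edgeR adjusted p = 8.98e-10). Its paralog Pde3b was lower, at 8.30 against 12.6 CPM under the BAP1 KO and WT labels (log2 fold change -0.60, SE 0.0845). Pde1c, an enzyme that calcium and calmodulin activate (gene ID 18575, chromosome 6, 56069798 to 56652510), stood at 13.5, 13.9 and 12.2 CPM in libraries labelled BAP1 KO and 2.56, 2.18 and 2.28 CPM in libraries labelled WT, 5.66-fold higher (log2 fold change 2.50, SE 0.0959, edgeR adjusted p = 1.13e-09). Pde1b, of the same class and under 2 CPM in every library, was higher by 1.25 (SE 0.177). Pde10a, which cleaves both cyclic nucleotides (gene ID 23984, chromosome 17, 8525187 to 8986648), stood at 35.9, 35.7 and 37.2 CPM in libraries labelled BAP1 KO and 8.14, 8.16 and 9.05 CPM in libraries labelled WT. None of its libraries overlapped between groups, at 4.28-fold higher (log2 fold change 2.10, SE 0.0611, edgeR adjusted p = 1.13e-10).

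**Figure D2:**
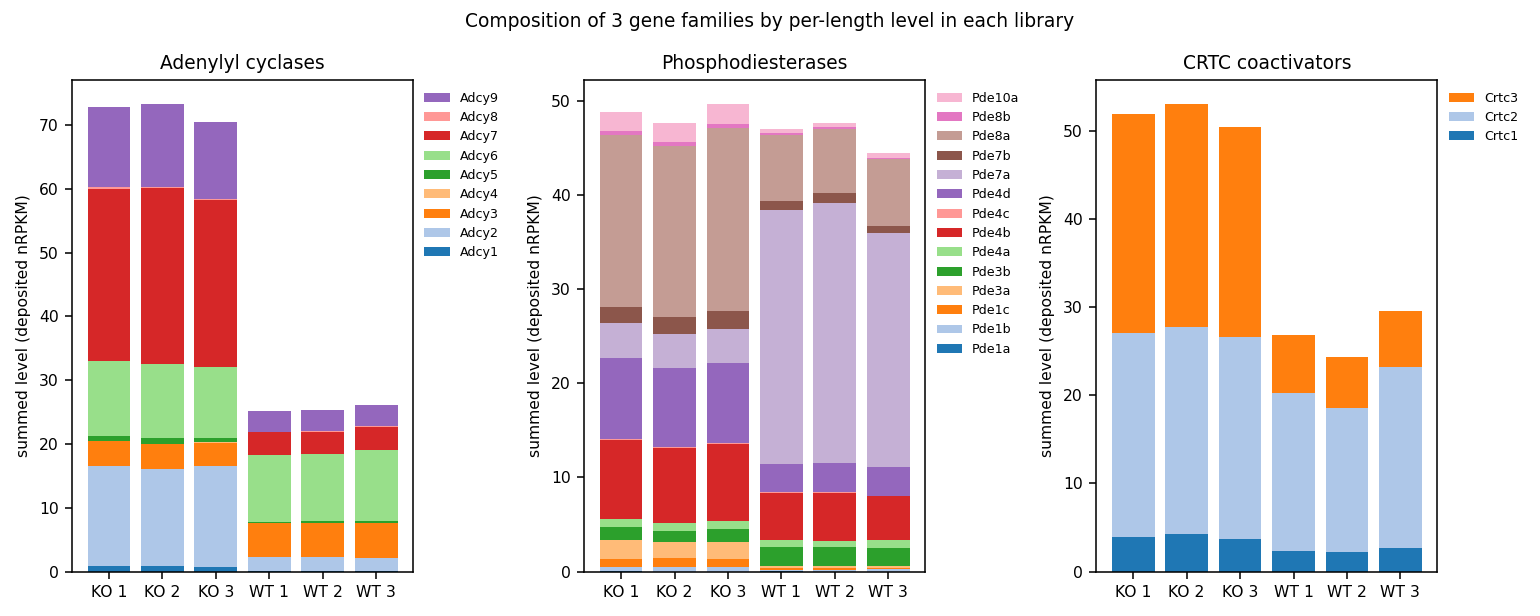
Summed nRPKM of the adenylyl cyclases, phosphodiesterases and CRTC coactivators in each library, stacked by gene (KO: labelled BAP1 KO). The cyclase bars are taller under the BAP1 KO label, and the phosphodiesterase bars are alike in height (44.5 to 49.7 nRPKM) while Pde7a fills most of them under the WT label alone.

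The abundant PKA subunits differed little. Of the 6 genes 5 were higher and Prkar1b was lower, beside 39.4% higher and 42.1% lower among all tested genes. Their summed level was 210.3 ± 1.91 nRPKM in libraries labelled BAP1 KO and 165 ± 4.09 nRPKM in libraries labelled WT. Prkar1a, the type I alpha regulatory subunit that holds the kinase inactive (gene ID 19084, chromosome 11, 109649023 to 109669663), stood at 492, 488 and 493 CPM in libraries labelled BAP1 KO and 384, 424 and 381 CPM in libraries labelled WT. The groups did not overlap, though the difference was only 1.24-fold (log2 fold change 0.31, SE 0.0442, edgeR adjusted p = 6.84e-05). Prkaca, the main catalytic subunit (gene ID 18747, chromosome 8, 83972978 to 83996444), stood at 141, 139 and 141 CPM in libraries labelled BAP1 KO and 106, 105 and 114 CPM in libraries labelled WT. It was 1.29-fold higher (log2 fold change 0.37, SE 0.0436, edgeR adjusted p = 1.44e-05), and the second catalytic gene, Prkacb, was 1.32-fold higher (log2 fold change 0.40, SE 0.0468). Prkaca held 69.8% ± 0.318 in libraries labelled BAP1 KO and 70.3% ± 1.90 in libraries labelled WT of the catalytic nRPKM, and the groups overlapped (exact permutation test, two-sided p = 0.7).

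Larger changes were seen in the low-level regulatory genes. Prkar2b, the type II beta subunit (gene ID 19088, chromosome 12, 31958450 to 32061648), stood at 12.3, 12.3 and 11.96 CPM in libraries labelled BAP1 KO and 6.07, 6.57 and 5.17 CPM in libraries labelled WT, 2.06-fold higher (log2 fold change 1.04, SE 0.0896, edgeR adjusted p = 1.08e-06). Prkar1b, the type I beta subunit best known from neurons (gene ID 19085, chromosome 5, 139017304 to 139150703), stood at 0.944, 1.27 and 0.976 CPM in libraries labelled BAP1 KO and 5.12, 5.69 and 5.24 CPM in libraries labelled WT. It was 4.99-fold lower, with 124 reads in all under the BAP1 KO label and 608 under the WT label (log2 fold change -2.32, SE 0.132, edgeR adjusted p = 3.31e-08). Prkar2a, the type II alpha subunit, was higher by 0.14 (SE 0.0434; edgeR adjusted p = 0.0104); with library totals in place of TMM the value was 0.08 (edgeR adjusted p = 0.098) and the call was lost. Type I subunits held 86.2% ± 0.127 in libraries labelled BAP1 KO and 85.96% ± 0.239 in libraries labelled WT of the regulatory nRPKM, nearly all of it Prkar1a, and the groups overlapped (exact permutation test, two-sided p = 0.3). The ratio of summed regulatory to summed catalytic nRPKM was 1.78 ± 0.00989 under the BAP1 KO label and 1.91 ± 0.131 under the WT label (exact permutation test, two-sided p = 0.3).

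All 5 CREB and CRTC genes were higher in libraries labelled BAP1 KO, beside 39.4% of all tested genes. Creb1, the factor that PKA phosphorylates (gene ID 12912, chromosome 1, 64532794 to 64604548), stood at 77.2, 73.3 and 79.1 CPM in libraries labelled BAP1 KO and 43.7, 54.8 and 37.3 CPM in libraries labelled WT. The libraries labelled WT were spread widely but stayed below all libraries labelled BAP1 KO, at 1.69-fold (log2 fold change 0.76, SE 0.110, edgeR adjusted p = 7.54e-05). Crem, whose locus makes both activators and the inducible repressor ICER, which the count pools, was higher by 0.62 (SE 0.0825), at 16.1 against 10.5 CPM under the BAP1 KO and WT labels.

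Crtc3 was the CREB coactivator with the largest difference. Crtc3, known for a part in pigmentation (gene ID 70461, chromosome 7, 80586627 to 80688948), stood at 136, 139 and 131 CPM in libraries labelled BAP1 KO and 36.4, 33.6 and 34.99 CPM in libraries labelled WT. It was 3.88-fold higher with no overlap (log2 fold change 1.95, SE 0.0472, edgeR adjusted p = 2.45e-11). Crtc1 was higher by 0.69 (SE 0.0773) and Crtc2 by 0.32 (SE 0.0660; edgeR adjusted p = 0.00112). Of the summed nRPKM of the 3 CRTC genes, Crtc3 held 47.6% ± 0.405 in libraries labelled BAP1 KO and 23.3% ± 1.65 in libraries labelled WT. Crtc2 held 44.8% ± 0.729 in libraries labelled BAP1 KO and 67.8% ± 1.54 in libraries labelled WT, so that Crtc2 led under the WT label and both genes stood close under the BAP1 KO label.

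Within 3 families, close paralogs were called in opposite directions: Pde7a lower and Pde7b higher, Pde3b lower and Pde3a higher, Prkar1b lower and Prkar1a higher. Under the WT label Pde7a, at 26.5 nRPKM, was far above Pde7b, at 0.898. Prkar1b, at 1.65 nRPKM, was far below Prkar1a, at 91.4. Replicates of the members lay close together. The median coefficient of variation of the 33 tested members was 3.13% in libraries labelled BAP1 KO and 6.62% in libraries labelled WT.

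**Figure D3:**
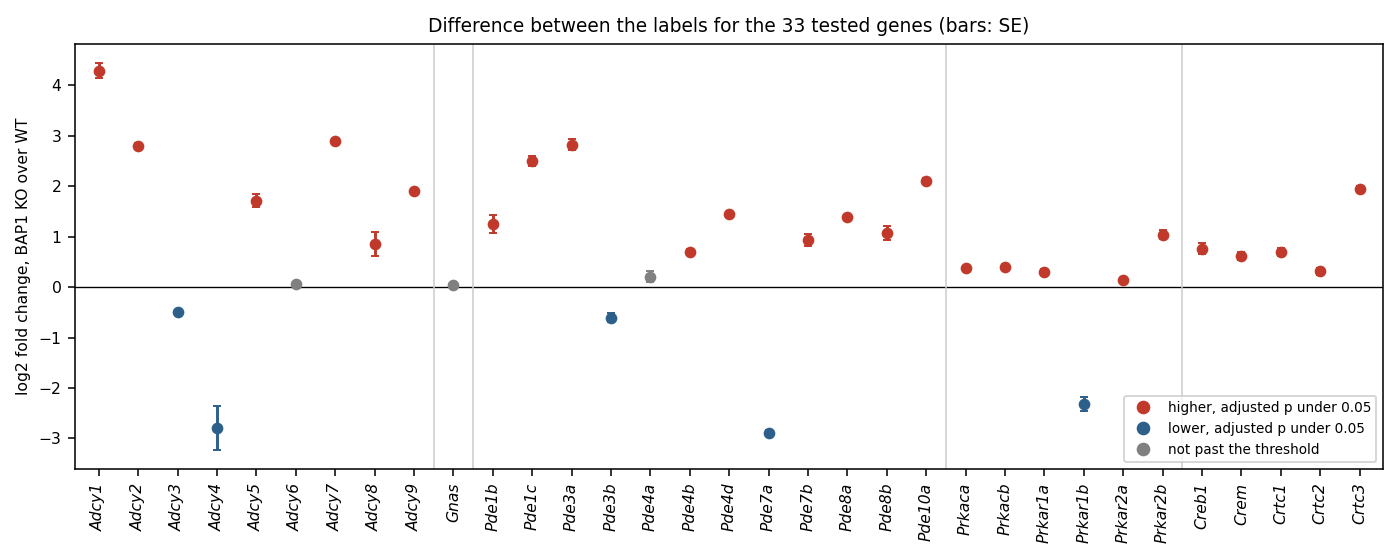
Log2 fold change (BAP1 KO over WT) of the 33 tested genes with bars of 1 SE, coloured by the edgeR call at an adjusted p under 0.05. Values run from -2.88 for Pde7a to 4.29 for Adcy1, PKA subunits other than Prkar1b and Prkar2b lie between 0.14 and 0.40, and Adcy6, Gnas and Pde4a are not past the threshold.

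Genes around these steps were counted from further lists. The counts of all these lists are to be read against 39.4% of all tested genes called higher and 42.1% called lower. Beside the -0.03 of all tested genes, the median log2 fold change was -1.71 for receptors and 0.54 for other G protein alpha subunits. The median was 0.31 for other phosphodiesterase genes, non-catalytic subunits included, and -0.03 for anchoring proteins. It was -0.49 for PKA inhibitors, 0.29 for other CREB factors, coactivators and SIK kinases and -1.44 for CREB targets. Of 16 receptors that raise cAMP, 3 were higher and 8 lower, 1 did not pass and 4 were not tested. Of the 12 tested receptors 4 reached the count filter's minimum in all libraries only under the WT label, 3 of them among the 8 lower; without these 4, 3 were higher and 5 lower. Mc1r, the alpha-MSH receptor, was higher by 1.07 (SE 0.0801), at 17.6 against 8.43 CPM under the BAP1 KO and WT labels, with 17.9% of its exon bases overlapping other genes. The prostaglandin E receptor Ptger4 (-3.90) and the adenosine receptor Adora2b (-2.42) were lower, and the parathyroid hormone receptor Pth1r was higher (2.43). In Ptger4, 16.5% of the exon bases overlap other genes. Of the 12 other G protein alpha subunits, 8 were higher and 3 lower. Gna15 fell the most (-3.70), and Gnaz (1.96), Gnao1 (1.77) and Gna14 (1.66) were higher; the first 2 of these 3 are of the class that inhibits cyclases.

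Outside the 14 listed enzymes, 10 further genes named as phosphodiesterases were examined. Of these 2 were higher, 2 lower, 1 did not pass and 5 were not tested. Pde6d, Pde6g and Pde6h are among the 10 but encode non-catalytic subunits, so the counts are not of enzymes alone. Pde2a, which cyclic GMP stimulates, stood at 3.87 against 45.7 CPM under the BAP1 KO and WT labels (log2 fold change -3.56, SE 0.0728, edgeR adjusted p = 7.00e-12). Pde9a was lower (-2.19), and Pde6d (0.94) and Pde5a (0.31) were higher. Of the 13 anchoring proteins that tether PKA, 4 were higher, 5 lower, 1 did not pass and 3 were not tested. Akap12 fell from 1223 to 116 CPM (log2 fold change -3.39, SE 0.0404, edgeR adjusted p = 2.33e-13), Akap6 (-4.08) and Akap13 (-1.32) were also lower, and Akap7 was higher (1.74). Of the 3 PKA inhibitor genes Pkia was higher (0.73), and Pkig (-0.49) and Pkib (-1.95, under 3 CPM in every library) were lower.

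The cAMP sensors outside PKA held the largest upward difference of the listed genes outside the 35. Rapgef4 (EPAC2), an exchange factor for the small G protein RAP1, stood at 592, 587 and 593 CPM in libraries labelled BAP1 KO and 38.98, 40.1 and 37.95 CPM in libraries labelled WT (log2 fold change 3.92, SE 0.0395, edgeR adjusted p = 1.23e-13). Its paralog Rapgef3 (EPAC1) was lower, at 46.9 against 89.6 CPM (-0.93). By nRPKM Rapgef4 had 63.2 ± 0.415 nRPKM in libraries labelled BAP1 KO and 4.08 ± 0.0538 nRPKM in libraries labelled WT, and Rapgef3 had 9.20 ± 0.572 nRPKM in libraries labelled BAP1 KO and 17.2 ± 0.968 nRPKM in libraries labelled WT. Of the 12 EPAC and cyclic nucleotide channel genes 2 were higher, 4 lower and 6 not tested, with the channel gene Hcn2 among the higher (1.27). Of the 4 lower genes 2 reached the filter's minimum only under the WT label. Leaving those 2 out, 2 were higher and 2 lower, and the median turned from -1.18 to 0.17; without a count filter 8 were lower.

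Further CREB factors, coactivators and SIK kinases numbered 12, of which 6 were higher, 5 lower and 1 not tested. Sik1, a kinase that keeps CRTC proteins out of the nucleus and is itself a CREB target, stood at 29.8 against 206 CPM under the BAP1 KO and WT labels (log2 fold change -2.79, SE 0.0601, edgeR adjusted p = 1.02e-11). Creb5 (-1.70) and Creb3l4 (-1.23) were lower and Creb3l2 was higher (0.97). Of the 21 CREB target genes 8 were higher, 11 lower and 2 not tested, beside the 39.4% higher and 42.1% lower among all tested genes. Besides Sik1, the growth factor gene Areg (-4.82) and the phosphatase gene Dusp1 (-2.60) were lower, and the nuclear receptor gene Nr4a3 was higher (2.54), from 21.7 to 125.5 CPM. Of these 21, Crem, Pde4b and Pde4d are also members above. Mitf itself stood at 266, 259 and 259 CPM in libraries labelled BAP1 KO and 53.2, 57.5 and 46.2 CPM in libraries labelled WT (log2 fold change 2.32, SE 0.0686, edgeR adjusted p = 1.28e-10).

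**Figure D4:**
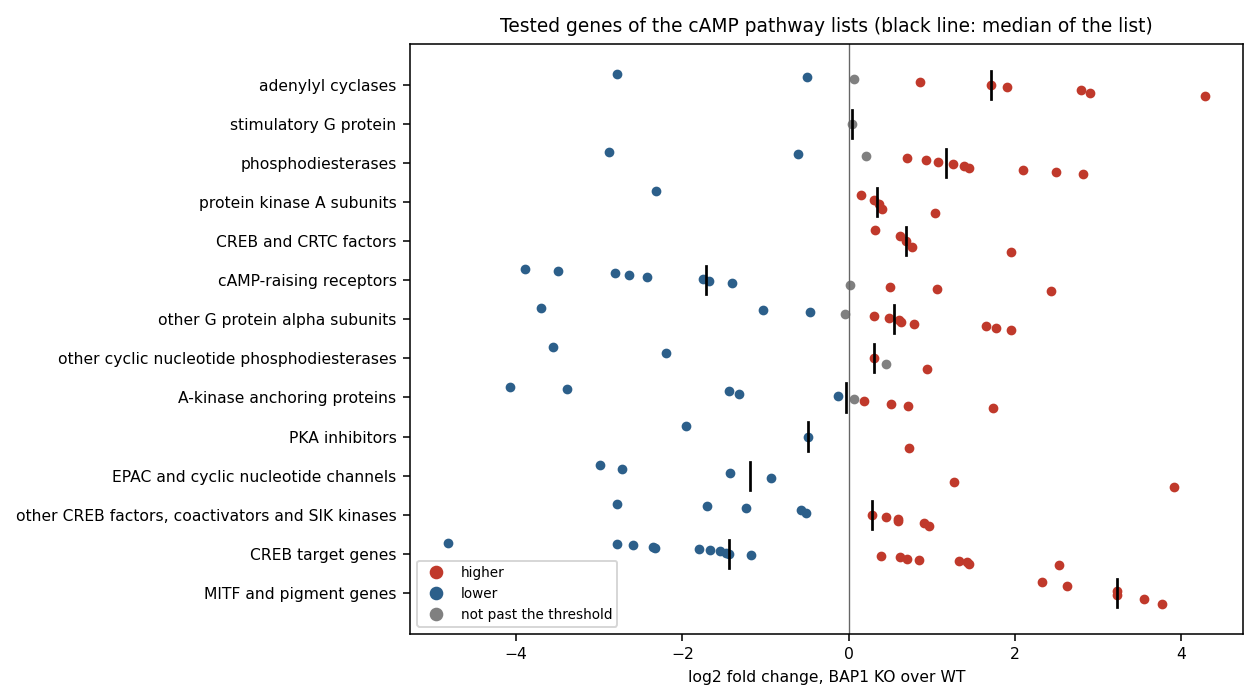
Log2 fold change (BAP1 KO over WT) of each tested gene, 1 row of points per list, with a black line at the median of the list. The 4 member families have medians from 0.34 to 1.72, the receptors and CREB targets lie mostly below 0, and Mitf and the 5 pigment genes all lie above 2.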

How the data were processed

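Single-end RNA-seq of 6 libraries of poly(A) RNA (3 labelled BAP1 KO, 3 labelled WT) was made with a TruSeq kit, which does not mark strand, per the labels' protocols. Reads were aligned with GSNAP to GRCm38, per the submitters' processing notes; no counting tool or annotation version is named in the sources used here. The deposited values are whole-number counts per gene and, beside them, the authors' size-factor adjusted RPKM (nRPKM) per the file headers. Depth of 33987690 to 43773769 reads limits only genes of a few reads.

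Counts were fitted in edgeR 4.0.16 (R 4.3.3) with TMM, filterByExpr (minimum count 10, minimum total 15) and the quasi-likelihood test on the 2 groups. Benjamini-Hochberg adjustment was over 17121 genes. The fit was checked on simulated counts in which few genes differed, equally up and down. That check cannot tell how the scaling holds where most genes differ, as they did here. Family levels are sums of nRPKM, compared by exact permutation. All members are named. Full values are given for members called with an absolute log2 fold change of at least 1 and 2 CPM in the higher group and for Gnas, Prkaca, Prkar1a and Creb1. Of each pathway list up to 4 called genes are named by size of log2 fold change with at least 2 CPM, plus Bap1, Mitf and Mc1r; some genes that this rule picks are not reported here; the values of Adcy6, Pde4a and Pkib, and the level of Rapgef3, were added after they were seen. The members and lists were chosen with earlier results of these data known. Alternatives were DESeq2 1.42.0, limma-voom 3.58.1, other scalings, filters and thresholds, and leaving out each library. The E-box search, the check of exon overlap, some of the shares shown and the scaling by the factors of the deposited RPKM came after the data were examined. No batch or pairing is in the labels.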

Additional observations from a re-analysis of the deposited data

How the results depend on the processing

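All 25 members called higher and all 5 called lower kept their call with DESeq2 size factors, the DESeq2 Wald test, limma-voom, upper-quartile factors, edgeR's robust option, no count filter, the factors of the deposited RPKM (chosen after seeing the data) and without each library in turn, where 25 to 28 members were called higher and 5 lower (all genes 6506 to 7117 higher and 6915 to 7260 lower). The kept call of Adcy4, 1 of these 5, supports nothing, because Adcy4 was tested only through its level under the WT label. Prkar2a lost its call with library totals, with 5 CPM in 3 libraries (0.07) and at an adjusted p under 0.01. Gnas turned to -0.025 with library totals and to -0.041 with the 5 CPM filter, and Adcy6 to -0.0089 with that filter; neither passed edgeR's test there, and the cause was not tested. Without a count filter Pde4a passed (0.24, edgeR adjusted p = 0.0497) and 8 EPAC and channel genes were lower, as more genes were tested. With the 5 CPM filter, which tests fewer genes, 1 adenylyl cyclase, 3 receptors, 1 other phosphodiesterase, 1 PKA inhibitor and 1 EPAC or channel gene were lower and 1 receptor was higher.

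Against a log2 fold change of 1 (glmTreat), 1818 of the 17121 tested genes were higher and 3417 lower. Among them 11 members were higher and 3 lower (Adcy4 included). By list this left 1 cyclase lower, 5 phosphodiesterases higher and 1 lower, 0 PKA subunits higher and 1 CREB or CRTC gene higher. Of the further lists, 1 receptor, 3 G protein alpha subunits, 0 other phosphodiesterases, 1 anchoring protein, 0 PKA inhibitors, 0 other CREB genes and 4 CREB targets were higher, and 1 G protein alpha subunit, 1 PKA inhibitor and 2 other CREB genes were lower.

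With counts not divided by length, Prkaca held 53.3% of catalytic reads under the BAP1 KO label and 53.8% under the WT label, the PDE4 genes 53.7% and 26.9%, Adcy6 20.9% and 51.5%, and Adcy7 12.9% under the WT label. No paired analysis was possible because the labels give no replicate numbers; those used here follow accession order and only name libraries. Few reads limit Adcy4, Pde1a and Pde4c.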
